A study of Mus musculus with 2 samples.

Results

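Open chromatin sites far from any protein-coding gene are the subject here: autosomal sites found in both replicates whose midpoint lay over 300 kb from every protein-coding transcription start site. They were chosen by position and by being shared, not by strength. Of 173501 shared autosomal sites, 13276 (7.65%) met the rule, and they are called desert sites below. The other sites comprised 131274 distal sites that lay 1 to 300 kb from a coding start site and 28951 sites within 1 kb of one. The sites came from DNase-seq, in which DNase I cuts accessible DNA in nuclei and the cut ends are sequenced. The tissue was embryonic facial prominence of mouse strain B6NCrl, taken from healthy embryos of both sexes at 14.5 days and pooled, and the labels name no treatment. The design held a single group with 2 biological replicates, recorded under one donor entry, so no test between groups was possible and the comparisons below are descriptions of these 2 libraries. The autosomal lists held 296849 peaks in replicate 1 and 212971 in replicate 2, and the read depth behind them is unknown.

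Gene deserts are long stretches of a chromosome without protein-coding genes. Some of them flank genes that control development, and enhancers, the DNA elements that raise transcription of a gene at a distance, can lie in them far from the promoter they act on. In the face the best known example is the desert beside Sox9, the regulator of cartilage and neural crest, where loss of distant enhancers is linked to Pierre Robin sequence in people. The nearest gene is used below as an address only, since no target gene was measured.

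The label desert held for most sites but not for all. Of the 13276 sites, 2043 (15.4%) lay inside the body of a protein-coding gene so long that its start site was over 300 kb away, and 34 of these fell in an exon. Another 1563 sites (11.8%) lay in an annotated long non-coding RNA (lncRNA) gene, with 82 in both classes, and 9752 sites (73.5%) lay in neither. Among distal sites at 1 to 300 kb, 51.0% lay in a coding gene body. The count rests on the start sites of GENCODE M21's basic set. With the comprehensive set, which adds many partial transcripts of coding genes, 10990 sites remained and 8.42% of them lay in a coding gene body.

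Promoters of marker genes were checked for a shared site. All 8 promoters of facial mesenchyme genes that were checked, among them Prrx1, Twist1 and Alx1, had a shared site within 500 bp, as had all 5 of epithelium, 4 of cartilage and bone, 3 of muscle and 4 of neurons. Of 3 endothelial genes Pecam1 had none, and neither Hbb-bt nor Ptprc of the blood had one. Of 6 genes of liver, heart, lung and retina, Nkx2-5 alone had one. The share of all coding promoters with such a site is not given here, so these counts do not identify the tissue.

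Sequences of the 5 desert sites with the highest mean rank over both replicates are shown first, because they show how different the strongest sites are in CpG content. Each line gives the central 150 bp of a site on the forward strand of mm10, 5′ to 3′, with CpG dinucleotides in capitals.
Gm26901 start, chr1:7398116-7398265: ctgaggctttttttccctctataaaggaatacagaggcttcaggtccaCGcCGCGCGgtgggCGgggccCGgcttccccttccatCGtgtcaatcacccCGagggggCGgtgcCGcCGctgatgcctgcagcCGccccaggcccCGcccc
Myc to Gsdmc interval, chr15:63340496-63340645: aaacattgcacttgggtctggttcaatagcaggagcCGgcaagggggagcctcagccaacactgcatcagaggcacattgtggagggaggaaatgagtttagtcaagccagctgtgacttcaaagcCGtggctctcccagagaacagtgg
Ubash3b to Sorl1 interval, chr9:41736046-41736195: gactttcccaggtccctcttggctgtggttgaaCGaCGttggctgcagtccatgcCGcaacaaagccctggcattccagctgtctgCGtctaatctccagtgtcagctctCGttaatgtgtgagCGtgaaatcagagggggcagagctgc
Rad51b intron, chr12:79612836-79612985: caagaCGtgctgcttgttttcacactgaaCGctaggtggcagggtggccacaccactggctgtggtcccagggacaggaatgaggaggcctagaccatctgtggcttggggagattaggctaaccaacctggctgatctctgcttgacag
2610035D17Rik start, chr11:113201776-113201925: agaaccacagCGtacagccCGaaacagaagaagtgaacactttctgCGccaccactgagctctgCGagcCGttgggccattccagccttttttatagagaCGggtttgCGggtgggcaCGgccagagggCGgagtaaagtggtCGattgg

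The first of them lay 322 bp from the start of the lncRNA Gm26901 and 309.3 kb from the nearest coding start, that of Pcmtd1. The authors' peak score there was 137 in replicate 1 and 123 in replicate 2. The score is a whole number per peak, from 2 to 150 on the autosomes, with no stated normalization, so it is read within a list, and a comparison of the 2 lists also gives the percentile within each. That window held 13 CpGs and a GC content of 68.0%. With the comprehensive set it lay 237.6 kb from a coding start and would not be a member. The site at 2610035D17Rik, an lncRNA of the Sox9 to Slc39a11 interval, lay 13 bp from its start, held 10 CpGs and scored 129 and 115. The other 3 were CpG-poor or moderate, with 2 CpGs in the Myc to Gsdmc interval (139 and 116), 6 in the Ubash3b to Sorl1 interval (135 and 119) and 2 in the Rad51b intron (134 and 112). Sorl1 encodes an intracellular sorting receptor and Rad51b a DNA repair protein. The Sorl1 site was 388.2 kb and the Rad51b site 315.3 kb from the nearest coding start, or 238.5 and 285.6 kb with the comprehensive set.

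The remaining 5 of the 10 highest ranked desert sites had scores of 127 to 138 in replicate 1 and 104 to 110 in replicate 2. One lay in the Rps24 to Zmiz1 interval (138 and 106) and one in the Npvf to Nfe2l3 interval (132 and 108), where Npvf encodes a neuropeptide. One lay 559.7 kb from Zfp608, a zinc finger gene (128 and 109). A further pair lay in the Ubash3b to Sorl1 interval (127 and 110, 129 and 104), so that this interval held 3 of the 10.

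At the other end of the distances, the farthest site lay 2643 kb from Pcdh9, a neuronal protocadherin, with scores of 34 and 19. It is shown with CpGs in capitals as the contrast to the strongest sites.
Pcdh20 to Pcdh9 interval, chr14:91246076-91246225: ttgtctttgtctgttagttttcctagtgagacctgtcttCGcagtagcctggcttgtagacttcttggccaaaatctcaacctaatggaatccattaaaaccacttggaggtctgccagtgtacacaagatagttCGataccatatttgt
The 5 farthest desert sites all lay in this interval on chromosome 14, between Pcdh20 and Pcdh9, at 2544 to 2643 kb from a coding start. Their scores were 24 to 41 in replicate 1 and 15 to 36 in replicate 2. Of all desert sites, 5398 (40.7%) lay over 500 kb, 982 (7.40%) over 1 Mb and 59 over 2 Mb from a coding start, and the median distance was 454 kb (quartiles 362 and 624 kb).

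Sites on either side of the 300 kb limit had scores in the same range. Just inside were sites near Flrt2 (300004 bp, scores 51 and 45), Fam19a4 (300032 bp, 35 and 24) and Tbx3 (300038 bp, 48 and 28). Just outside were sites near Mdfic (299994 bp, 35 and 22), Zfp608 (299845 bp, 67 and 31) and Galr1 (299836 bp, 40 and 27).

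Desert sequence was open less often than the rest of the autosomes, and the more so the farther from a coding start. Stretches over 300 kb from every coding start formed 731 intervals that held 459 Mb of sequence without assembly gaps, 19.1% of the autosomes. They held 28.9 shared sites per Mb, against 82.7 per Mb in all other autosomal sequence and 69.6 per Mb at 1 to 300 kb. The density was 50.3 sites per Mb at 200 to 300 kb, 39.9 at 300 to 500 kb, 24.5 at 500 kb to 1 Mb and 12.2 over 1 Mb. Both replicates showed the decline, from 97.3 to 29.7 peaks per Mb in replicate 1 and from 61.9 to 15.4 in replicate 2 between the same outer bands. Repeat-masked bases made up 39.1% of desert sequence and 32.2% of the rest. Per Mb of unmasked sequence the desert held 47.5 sites and the rest 122, a ratio of 0.39 where it was 0.35 over all sequence. The share of masked sequence moved with the lower density, and the fall with distance remained in unmasked sequence (76.8, 62.8, 40.6 and 21.7 sites per Mb in the 4 bands).

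**Figure D1:**
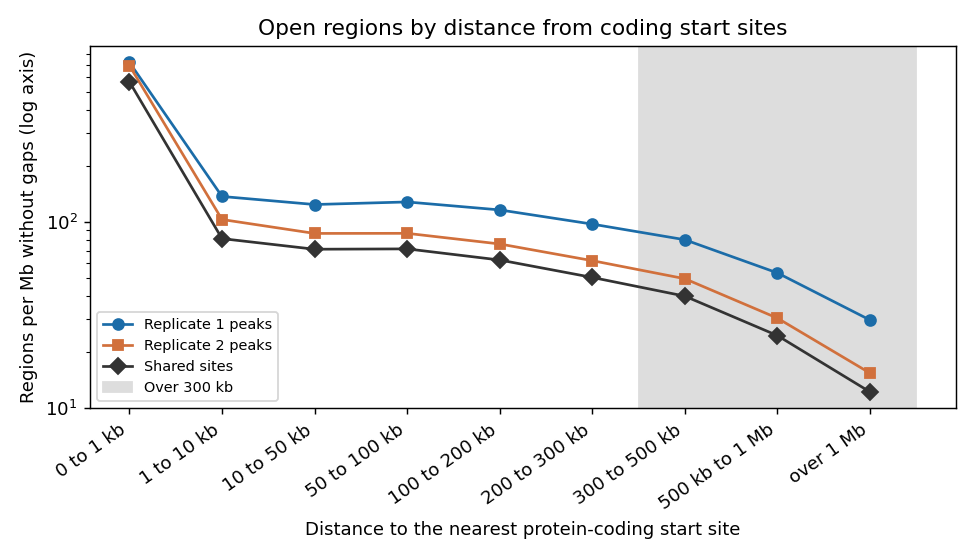
Peaks of each replicate and shared sites per Mb of autosomal sequence without gaps (log axis), by distance to the nearest protein-coding start site, with the bands over 300 kb shaded. Shared sites go from 566 per Mb within 1 kb of a start to 12.2 per Mb over 1 Mb away, and both replicates decline over the shaded bands.

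Desert sites were weaker than nearer sites in both lists. Their median score was 53 in replicate 1 (quartiles 41 and 68) and 31 in replicate 2 (24 and 43). Distal sites at 1 to 300 kb had medians of 61 and 39, and sites within 1 kb of a coding start 88 and 71. The decline went on inside the desert, from medians of 54 and 32 at 300 to 500 kb to 47 and 28 over 1 Mb. The interquartile ranges of desert and distal sites overlapped widely in each replicate. The strongest desert sites, at 139 and 123, stayed below the highest distal scores of 149 and 143. The distal set was far larger (131274 against 13276 sites), so these maxima are not compared at like size.

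**Figure D2:**
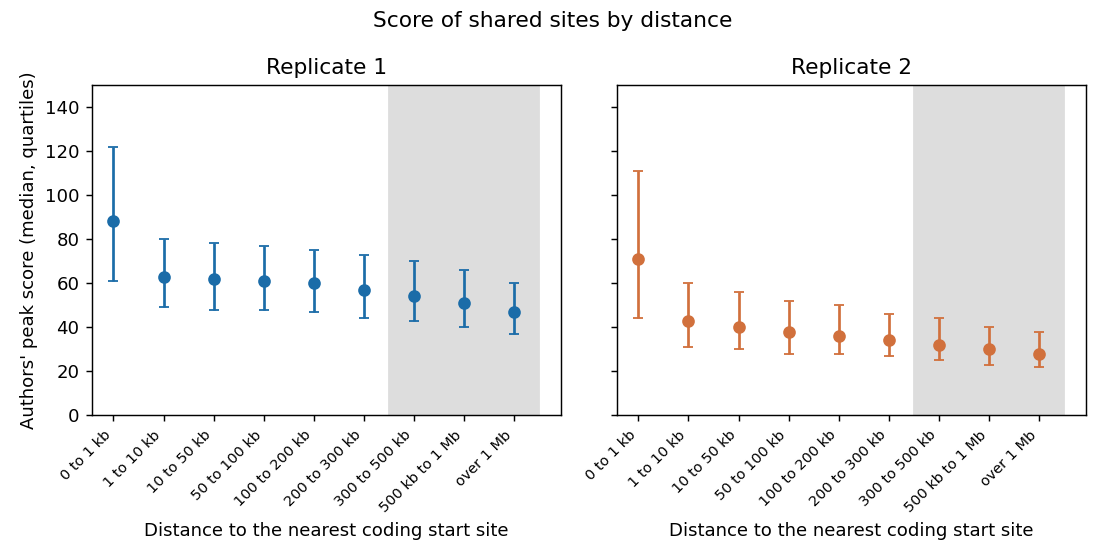
Authors' peak score of shared sites by distance to the nearest coding start, as median with quartiles, one panel per replicate and the bands over 300 kb shaded. In replicate 1 the median goes from 88 within 1 kb to 47 over 1 Mb, and in replicate 2 from 71 to 28.

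How often a desert peak was found again depended on the replicate and on the score. Of 27840 desert peaks in replicate 1, 48.4% overlapped a peak of replicate 2, where the share over all autosomal peaks of replicate 1 was 59.3%. Of 16498 desert peaks in replicate 2, 83.1% overlapped a peak of replicate 1, against 83.6% of all. Desert peaks were more often in the low-scoring groups than distal peaks were. With the peaks of each list split into 4 groups at the quartiles of the score, in the second group of replicate 1 (39 to 50) 50% of desert peaks and 43.5% of distal peaks were shared, in the third (51 to 69) 79.6% and 73.0%, and in the highest (70 to 150) 97.1% and 95.7%. In the lowest group (2 to 38), which held 45.2% of the desert peaks but 26.3% of the distal ones, the shares were 22.1% and 23.9%. In replicate 2 desert peaks were shared at least as often as distal ones in all 4 groups, with 69.6% and 62.0% in the lowest and 98.9% and 98.7% in the highest.

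The sequence of desert sites was poorer in G, C and CpG than that of nearer sites. The median GC content of the central 150 bp was 44.7% (quartiles 40.7 and 48.7%), against 49.3% in distal sites and 62.7% within 1 kb of a coding start. Desert sequence as a whole had 38.4% GC and windows 1000 bp to either side of the desert sites, outside every peak and hotspot, a median of 39.3%. No CpG was present in 3420 desert windows (25.8%), against 14.0% of distal ones. Windows with over 55% GC and an observed to expected CpG ratio over 0.65, the composition of a CpG island, numbered 63 (0.475%) among desert sites and 3.08% among distal sites. Few of the open windows were mostly repeat-masked, though many held some masked bases. No masked base was present in 58.2% of desert and 57.6% of distal windows. Over 50% of the window was repeat-masked in 301 desert sites (2.27%), near the 2.53% of distal sites, and in 17.6% of the flanking windows.

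Starts of lncRNA genes accounted for few desert sites. Within 500 bp of an lncRNA start lay 184 desert sites (1.39%), against 1.99% of distal sites. The 6 of them with the highest mean rank were picked for their strength, so they do not describe the 184 as a set. Besides Gm26901 and 2610035D17Rik they lay at 3110039I08Rik in the Ubash3b to Sorl1 interval (a pair of sites, with scores of 127 and 110, and 119 and 107), at AC160966.1 in the same interval (131 and 101) and at Gm31378 (124 and 97), which was 699.7 kb from the nearest coding start, that of Rfpl4b.

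Desert sites were unevenly spread over the intervals. Of the 731 intervals, 63 held no shared site. Of these, 13 lay wholly in assembly gaps, which leaves 50 of 718 intervals with sequence. Of the 575 with at least 100 kb of sequence 17 held none, and all 151 with at least 1 Mb held some. Those 151 had a median of 16.7 sites per Mb (quartiles 10.8 and 27.5), with extremes of 1.58 and 90.5. The 119 intervals with most sites held 50% of them in 34.8% of the desert sequence. The median desert site had another desert site within 5.52 kb, against 2.85 kb between distal sites. Within 2 kb, 4176 desert sites (31.5%) had another desert site, and 42.1% of distal sites had another distal one.

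The interval with most sites lay between Slc10a2, a bile acid transporter gene, and Efnb2, which encodes the membrane-bound signal ephrin-B2 (chr8:5405352-8361241). It held 116 sites in 2.96 Mb, from 236 peaks of replicate 1 and 137 of replicate 2, with median scores of 56 and 33. The sites were densest at its Efnb2 end, where 19 sites had midpoints at chr8:8241331-8335731. The interval from Nmbr to Cited2, a transcriptional coactivator gene, had 103 sites in 2.36 Mb (chr10:15060220-17423217) and likewise its fullest 100 kb, with 14 sites, in the part nearer Cited2 (chr10:17288421-17385341). Between Zeb2, a transcription factor of neural crest, and Acvr2a, an activin receptor, 111 sites lay in 3.10 Mb (chr2:45417396-48514108). Between Slc4a3, an anion exchanger gene, and Epha4, an ephrin receptor gene, 110 lay in 1.37 Mb (chr1:75846267-77215087), or 80.4 per Mb. Of the latter, 99 remained with the comprehensive set.

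The interval between Zfp608 and Gramd3 held nearly as many sites in far less sequence. It had 113 sites in 0.81 Mb (chr18:55290167-56100336), or 139 per Mb, with median scores of 68 and 40 and highest scores of 133 and 109. In replicate 1 it had 167 peaks and in replicate 2 136, and 28 of its sites lay within 100 kb at chr18:55599741-55698511. The interval between Kcnj2, a potassium channel gene, and Sox9 (chr11:111366165-112482223) had 101 sites in 1.12 Mb, or 90.5 per Mb, the highest density among intervals of at least 1 Mb. Their median scores were 56 and 32. Sox9 was the nearest coding gene for 57 of these sites and Kcnj2 for 44, and 16 sites lay within 100 kb at chr11:111904311-111999751.

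Genes of cell adhesion and guidance flanked other full intervals. Flrt2, which encodes a transmembrane adhesion protein, and Sel1l bounded 106 sites in 3.24 Mb (chr12:92149158-95392225), with median scores of 47 and 28.5. Tenm3, a teneurin gene, and Aga bounded 93 sites in 4.24 Mb (chr8:48974691-53211726), of which 83 were nearest to Tenm3 and 80 remained with the comprehensive set. Adgrl2, which encodes the latrophilin receptor that can bind both families, and Ttll7 bounded 90 in 1.33 Mb (chr3:147194177-148522978). Between Celf4, an RNA-binding protein gene, and Pik3c3 94 sites lay in 3.92 Mb (chr18:26054158-29972746).

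**Figure D3:**
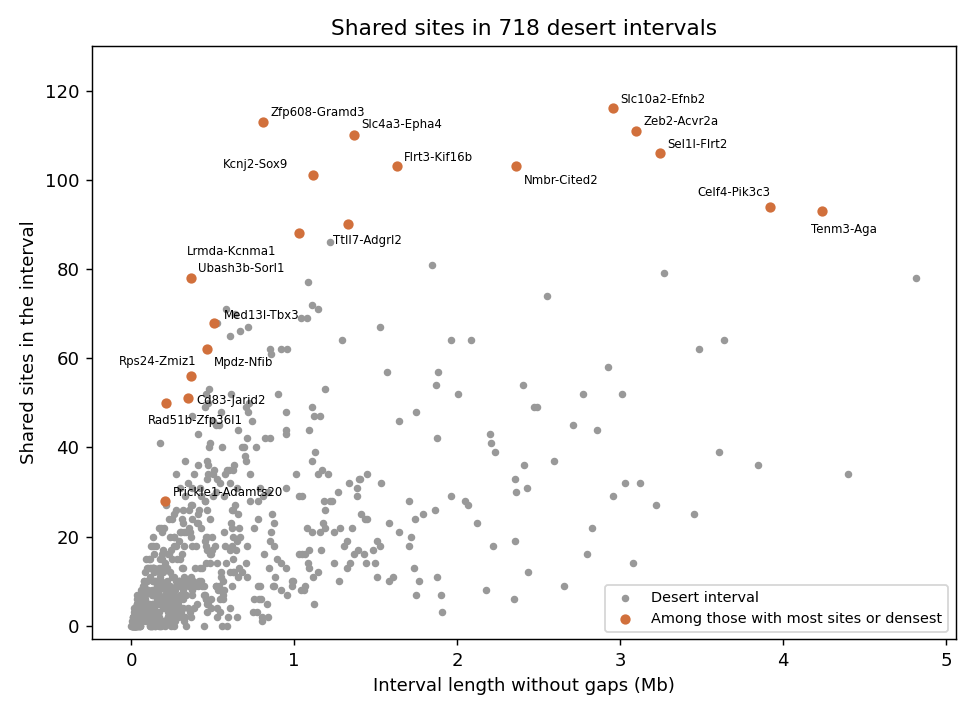
Number of shared sites against length without gaps for the 718 desert intervals with sequence, with those holding most sites and the densest ones of at least 200 kb in orange, named by the flanking coding genes. Zfp608-Gramd3 reaches 113 sites in 0.81 Mb, while Slc10a2-Efnb2 has 116 in 2.96 Mb.

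The remaining full intervals were introns of long genes and depend on the annotation. Between Flrt3 and Kif16b (chr2:140971470-142601443) 92 of 103 sites lay in Macrod2, a gene of about 2000 kb, and 1 of the 103 remained with the comprehensive set. Between Lrmda and Kcnma1 (chr14:22319849-23350188) 82 of 88 sites lay in those genes, and 21 remained.

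The 6 fullest intervals differed in how many 50 kb bins were empty. They also differed in density, from 32.7 sites per Mb (Sel1l to Flrt2) to 139 (Zfp608 to Gramd3). Whether the arrangement differed beyond that was not tested. Between Zfp608 and Gramd3 no bin of 50 kb was empty, and the fullest held 15 sites. Between Slc4a3 and Epha4 3 of 28 bins were empty. In the 4 longer ones 9 of 48 bins (Nmbr to Cited2) to 16 of 62 (Zeb2 to Acvr2a) were empty and no bin held more than 8 sites.

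**Figure D4:**
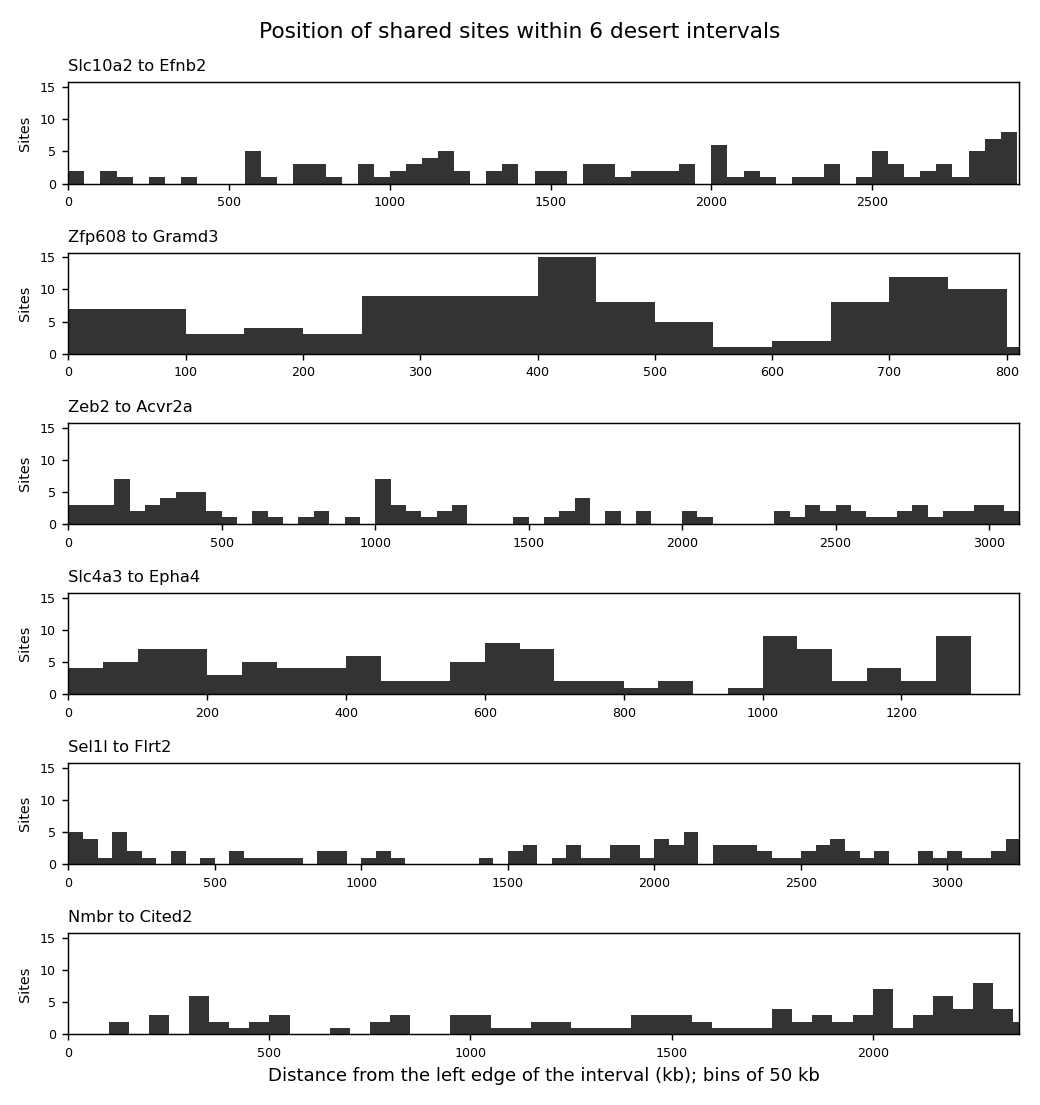
Number of shared sites in bins of 50 kb along the 6 desert intervals with most sites, by distance from the left edge of the interval. Zfp608 to Gramd3 reaches 15 sites in a bin and has no empty one, while Sel1l to Flrt2 has at most 5 sites in a bin and 15 empty bins.

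Among intervals of at least 200 kb with at least 10 sites, the densest lay between Rad51b and Zfp36l1, an RNA-decay gene (chr12:79597564-79812993). It had 50 sites in 215 kb, or 232 per Mb, with median scores of 74 and 42.5, and all 50 lay in the body of Rad51b. The Ubash3b to Sorl1 interval (chr9:41458063-41824296) had 78 sites in 366 kb, or 213 per Mb, outside coding genes. Its highest scores were 135 and 119. With the comprehensive set 39 and 44 sites of these intervals remained. Next came Rps24 to Zmiz1, a transcriptional coactivator gene (chr14:24790768-25159223, 56 sites, 152 per Mb), and Cd83 to Jarid2, a gene of the Polycomb repressive system (chr13:44084776-44430773, 51 sites, 147 per Mb). After Zfp608 to Gramd3 followed 3 intervals at 133 to 134 sites per Mb. They were Prickle1, a planar polarity gene, to Adamts20 (chr15:93895892-94104257, 28 sites), Mpdz to Nfib, a transcription factor gene (chr4:81742808-82205307, 62 sites), and Med13l to Tbx3, a T-box gene (chr5:118860740-119370668, 68 sites, of which 39 remained with the comprehensive set). Repeat-masked bases made up 16.7 to 37.5% of the 8 densest intervals.

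Some long intervals held few sites. Among the sparsest of the 50 longest with any site were Lrfn5, a synaptic adhesion gene, to Fscb (6 sites in 2.35 Mb, chr12:61823949-64174689), Cox7c to Edil3 (8 in 2.17 Mb, chr13:86346905-88521471) and Kcnv1 to Csmd3 (14 in 3.08 Mb, chr15:45414828-48491932), of which 3, 8 and 7 remained with the comprehensive set. Masked bases made up 46.1 to 52.6% of them. The longest intervals without a shared site were Cntn6 to Cntn4, a pair of contactin genes (584 kb, with 7 peaks in replicate 1 and 0 in replicate 2), Gm21863 to Asap2 (557 kb), Gm12887 to 9530002B09Rik (448 kb), Lrrc7 to Depdc1a (333 kb), Klra1 to Klra2 of the natural killer receptor cluster (260 kb) and the start of chromosome 16 to Olfr161 (241 kb). They had 0 to 7 peaks in replicate 1 and at most 1 in replicate 2. Masked bases made up 40.1 to 56.9% of them, and whether reads could be placed uniquely there was not tested.

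Gene addresses differed by class. Coding genes numbering 1211 had desert sequence nearest to them, and 1084 of these had a desert site. Transcription factors of the facial mesenchyme were the nearest gene for 890 desert sites (6.70%) and for 3.29% of desert sequence, so their stretches held 58.9 sites per Mb where all desert sequence held 28.9. Of all shared sites, 2.81% had such a gene nearest. Of 49 such genes with desert sequence 47 had a site, led by Sox9 and Zeb2 (64 each), the nuclear receptor genes Nr2f1 (46) and Nr2f2 (43) and Gata3 (41). Craniofacial signalling genes had 157 sites (1.18%) on 0.459% of the desert sequence, or 74.6 per Mb. They were nearest to 1.23% of all shared sites, so their share among desert sites was no higher than that. The activin subunit gene Inhba had 42, the Notch ligand gene Jag1 23, the TGF-beta receptor gene Tgfbr2 19, and the growth factor genes Gdf6 and Fgf9 16 each. Transcription factors of neural tissue had 299 sites (2.25%) on 1.59% of the sequence, or 41.1 per Mb, with Zfp536 (34), the cofactor gene Lmo4 (32), Pou3f3 (31), Id4 (23) and Sall1 (22) in front. Of all shared sites, 0.976% had a gene of this list nearest.

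Genes listed under neural adhesion and the synapse showed the opposite imbalance against desert sequence. They were nearest to 25% of desert sequence (115 Mb) but to 17.0% of desert sites (2260), which gave 19.7 per Mb. Of all shared sites they were nearest to 3.44%, so among sites their share was higher in the desert. The genes of this list with most desert sites were Adgrl2 (109 sites, 68.6 per Mb), Flrt2 (93, 35.7 per Mb), Tenm3 (83, 39.2 per Mb), the mesenchymal cadherin gene Cdh11 (74, 42.5 per Mb) and Robo1, a receptor of axon guidance (67, 46.3 per Mb). Unlike the list as a whole, these genes lay above the 28.9 per Mb of all desert sequence. With Cdh11 in it, the list is not purely neural. Among the 12 genes with most desert sites were also Zfp608 (96, 143 per Mb), Efnb2 (70, 47.4 per Mb), Cited2 (69, 58.4 per Mb), Slc4a3 (65, 95.0 per Mb) and Lrmda (62, 120 per Mb), which are in none of the lists. Chemosensory receptor genes were the nearest for 8 desert sites (0.0603%) on 0.187% of the desert sequence, or 9.31 per Mb, with 7 at Olfr1505 and 1 at Olfr1507. Of all shared sites, 0.348% had such a gene nearest. The median over the genes with at least 100 kb of desert sequence was 61.3 sites per Mb for the 35 mesenchymal transcription factors, 77.8 for the 7 signalling genes, 36.6 for the 17 neural transcription factors, 19.8 for the 107 adhesion and synapse genes, 0.863 for the 2 chemosensory receptor genes and 27.5 for all 852 genes.

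Intervals were also compared by the genes at their ends, with the same lists and the same limit. Of 483 intervals with at least 200 kb, 47 were flanked by a facial transcription factor or signalling gene, with a median of 59.3 sites per Mb (quartiles 37.9 and 87.9), and 44 of the 47 lay above the median of all, 26.1. The 148 intervals flanked by an adhesion or synapse gene and by no facial gene had a median of 17.7 (quartiles 10.5 and 29.1), and 44 of them lay above the median of all. The interquartile ranges of these 2 classes did not overlap. The 288 intervals flanked by neither kind of gene had a median of 28.1 (quartiles 14.4 and 56.3), and 153 of them lay above the median of all. Intervals beside facial genes were shorter than those beside adhesion genes, with a median length of 495 kb against 1160 kb, and density fell with distance from a start, so that length and class moved together here.

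Long coding genes that held desert sites numbered 191. The 12 with most were Macrod2 (92), Lrmda (81), Wwox (58), Rad51b (50), Rbms3 (41), Arhgap15 and Lsamp (40 each), Ptprd (39), Pcdh9 (34), Gpc6 (33), and Csmd1 and Npas3 (32 each). Sites in Rad51b and in Wwox, which encodes an oxidoreductase, were the strongest of these, with median scores of 74 and 42.5 and of 72 and 43. Those in Pcdh9 (47.5 and 32) and Csmd1 (48.5 and 30.5) were weaker. Desert sequence inside coding gene bodies held 37.9 sites per Mb and that outside them 27.8. The members in several of these genes rest on the basic set, since with the comprehensive one 1 of 92 remained in Macrod2, 15 of 81 in Lrmda and 0 in Rbms3 and Arhgap15, while all remained in Pcdh9, Gpc6 and Npas3.

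Motifs were then counted in the central 150 bp on both strands. A match is a description of the letters and not of binding. The highest ranked desert site with each of 4 motifs is shown with the match in capitals, forward strand of mm10, 5′ to 3′.
CTCF, chr3:128337156-128337305: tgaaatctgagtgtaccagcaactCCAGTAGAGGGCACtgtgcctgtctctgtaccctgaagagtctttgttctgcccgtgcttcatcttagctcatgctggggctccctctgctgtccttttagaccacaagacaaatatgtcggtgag
AP-1, chr9:41705496-41705645: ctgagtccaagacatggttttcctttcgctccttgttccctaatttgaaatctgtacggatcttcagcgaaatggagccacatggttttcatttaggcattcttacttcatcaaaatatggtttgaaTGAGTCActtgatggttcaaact
NFI, chr1:81744656-81744805: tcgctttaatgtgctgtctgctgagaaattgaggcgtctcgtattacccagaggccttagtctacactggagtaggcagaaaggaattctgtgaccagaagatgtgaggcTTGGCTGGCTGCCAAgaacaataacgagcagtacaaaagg
MEF2, chr14:100750266-100750415: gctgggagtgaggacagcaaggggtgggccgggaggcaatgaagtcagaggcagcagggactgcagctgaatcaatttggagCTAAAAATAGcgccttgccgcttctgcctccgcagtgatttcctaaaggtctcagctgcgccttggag
The CTCF site lay 440.9 kb from Fam241a with scores of 117 and 103, and the AP-1 site 418.7 kb from Sorl1 with scores of 130 and 103. The NFI site (110 and 84) lay 488.4 kb from Gm9747 and the MEF2 site (130 and 87) 449.7 kb from Prr30. The highest ranked site with the RUNX motif TGTGGT is the Ubash3b to Sorl1 site printed above.

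The CTCF motif was rarer in desert sites than in distal sites at 1 to 300 kb, but not rarer than at coding starts. CTCF is the zinc finger protein that anchors chromatin loops. Its motif was present in 161 desert sites (1.21%), in 3.13% of distal sites at 1 to 300 kb and in 2.55% of all shared sites, and in 3 of 24387 flanking windows (0.0123%). By distance the share was 0.556% within 1 kb, 3.73% at 1 to 10 kb and 4.04% at 10 to 50 kb. Beyond that it was lower in each band, with 1.28% at 200 to 300 kb and 1.02% over 1 Mb. Another, shorter CTCF string was CC and AGGGGGC with 3 bases of any kind between them. It was present in 0.708% of desert and 2.04% of distal sites (1.85% of all). The string is not a looser form of the first motif, since the CTCF site printed above lacks it. Of the 12 intervals with most sites, 6 held no site with the motif, 4 held 1, and Kcnj2 to Sox9 and Tenm3 to Aga held 2 each.

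Desert sites with the CTCF motif stood out from the others in replicate 2. Their median score was 58 in replicate 1 and 56 in replicate 2, against 53 and 31 for desert sites without it. Replicate 2 scored at least as high as replicate 1 at 67 of the 161 (41.6%) and at 3.62% of the others. Of the 542 desert sites at which this was so, 67 (12.4%) held the motif. Within their own lists the median percentile of the sites with the motif was 62.2 in replicate 1 and 75.9 in replicate 2, and that of the sites without it 54.7 and 36.9. Distal sites showed the same contrast, with medians of 69 and 67 with the motif against 61 and 38 without it. With 1 library per side the difference between replicates has no replicate check.

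Several other motifs also had unequal shares in desert and distal sites. The homeodomain motif TAATTA was present in 5.75% of desert and 4% of distal sites (3.65% of all), the POU motif ATGCAAAT in 1.36% and 0.986% (0.958% of all), and the MEF2 motif in 2.46% and 1.86% (1.7% of all). All of these were at least as frequent in the flanking windows, at 7.02%, 1.37% and 4.16%. The TFAP2 motif GCCNNNGGC was present in 3.65% of desert and 5.98% of distal sites (7.22% of all), the ETS motif CAGGAAGT in 1.33% and 1.86% (1.79% of all), and the NRF1 motif, GCGCA and GCGC with 1 base between them, in 9 desert sites (0.0678%) and 0.232% of distal ones (0.91% of all). TFAP2, ETS and NRF1 were rarer in the flanking windows than in desert sites, at 1.25%, 0.923% and 0.0205%. Desert sites also had a lower GC content than distal sites (medians of 44.7% and 49.3%), and its part in these shares was not tested.

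The NFI and TWIST-type motifs were among those more frequent in desert sites than in both distal sites and flanks. RUNX, TEAD, MEIS and FOX, given below, had the same order, with desert to distal ratios of 1.02 to 1.08. Nuclear factor I proteins bind a palindrome, searched as TTGGC and GCCAA with 5 bases of any kind between them, which was present in 52 desert sites (0.392%), 0.243% of distal sites and 0.222% of all, and in 0 of 24387 flanking windows, which allows a share of up to 0.0123%. The single NFI motif TTGGCA was present in 22% of desert sites, 17.2% of distal sites, 15.9% of all and 7.28% of flanks. The E-box CAGATG, of the kind bound by the mesenchymal factor Twist1, was present in 21%, 18.3%, 16.7% and 10.3% in the same order. Within the highest ranked 10% of each set the desert shares were 22.2% for the single NFI motif and 22.3% for the E-box, against 15.0% and 16.6% in distal sites.

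The remaining motifs differed from distal sites to varying degrees, with desert to distal ratios from 0.56 for CRE to 1.32 for p63. AP-1 (TGANTCA) was present in 6.49% and 6.56% (5.96% of all), RUNX in 13.6% and 13.4% (12.2% of all), TEAD (GGAATG) in 13.4% and 12.5% (11.6% of all), MEIS (TGACAG) in 13.9% and 13.3% (12.5% of all), EBF (TCCC and GGGA with 2 bases between them) in 1.29% and 1.31% (1.24% of all) and the E-box CAGCTG in 17.8% and 19.6% (18.1% of all). RUNX, TEAD and MEIS were present in 8.39 to 9.74% of the flanking windows, AP-1 in 4.93%, EBF in 0.176% and the E-box CAGCTG in 4.35%. The SOX motif ACAATGG was present in 2.42% of desert sites and 2.09% of distal ones (1.94% of all), the FOX motif TGTTTAC in 2.67% and 2.55% (2.35% of all), close to the 2.52% and 2.37% of the flanks. The GATA motif AGATAAG (1.36% and 1.19%, 1.11% of all), the LEF1/TCF motif CTTTGAT (2.87% and 2.27%, 2.11% of all), the nuclear receptor motif AGGTCA (6.05% and 6.55%, 6.17% of all) and the p63 motif, CATG repeated with 6 bases between (0.595% and 0.45%, 0.407% of all), were all more frequent in the flanks than in the desert sites, at 2.41%, 3.1%, 7.77% and 0.755%. The CRE motif TGACGTCA was present in 0.226% of desert and 0.404% of distal sites (0.607% of all). The RFX motif, GTTGCC, 2 bases, GG, 1 base and AAC, was present in 0.203% and 0.259% (0.248% of all). In the flanking windows CRE and RFX were rarer than in desert sites, at 0.0574% and 0.0082%.

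**Figure D5:**
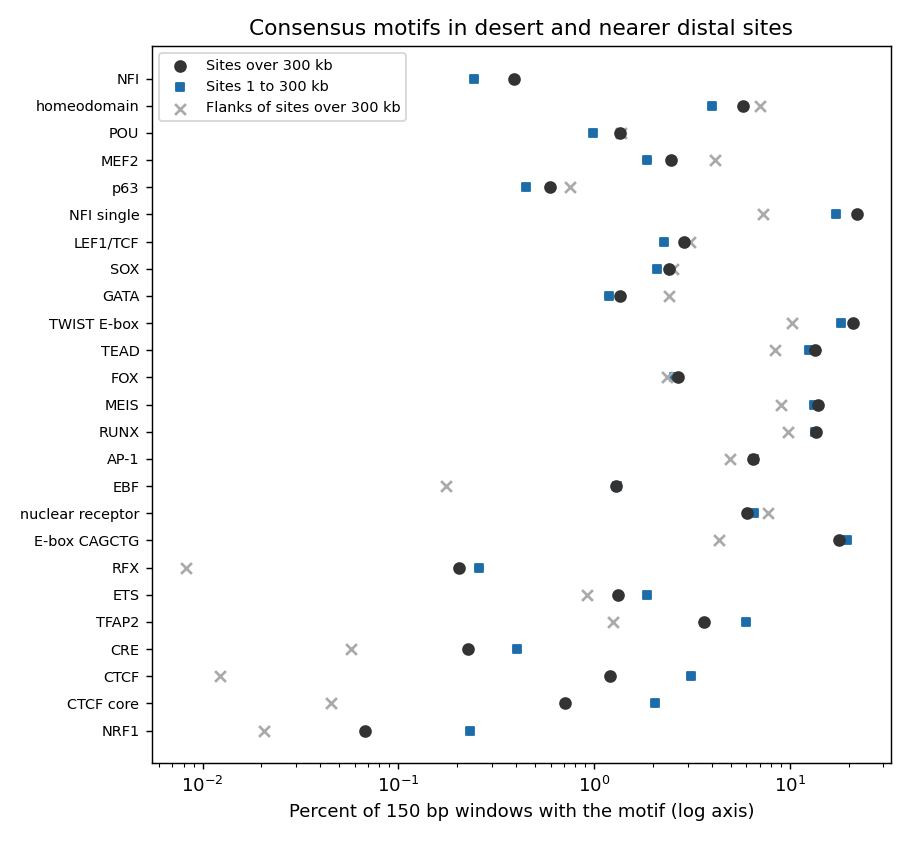
Percent of 150 bp windows with each of 25 motifs (log axis) in desert sites, in distal sites 1 to 300 kb from a coding start and in windows 1000 bp beside the desert sites, ordered by the ratio of desert to distal. NFI leads at 0.392% against 0.243% with none in the flanks, which is not drawn, and CTCF is near the bottom at 1.21% against 3.13%.

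The replicates kept a steady balance over most intervals. Replicate 1 supplied 62.8% of all desert peaks, and in 492 intervals with at least 20 peaks its median share was 63% (quartiles 59.1 and 66.7). In 5 of these replicate 2 had more peaks, namely Isl1 to Parp8, Epha4 to Pax3, Xylt1 to Rps15a, Asic2 to 5530401A14Rik and Myo16 to Irs2, the last 2 named after their values were seen. Isl1, a LIM homeodomain gene, and Parp8 bounded 15 peaks in replicate 1 and 23 in replicate 2 (chr13:116609690-116725394), with 13 shared sites, of which 1 remained with the comprehensive set. Epha4 and Pax3, a neural crest factor, bounded 13 and 14 peaks (chr1:77815089-77896837), and Xylt1 and Rps15a 14 and 15 (chr7:117680980-117815255), where 1 of 10 shared sites remained. Furthest the other way were St6galnac5 to St6galnac3 (22 and 5 peaks, chr3:153282247-153425173, where 0 of 5 shared sites remained), Ghitm to Nrg3, a neuregulin gene (62 and 16, chr14:37435253-39172824), and Lingo2 to 1700009N14Rik (33 and 9, chr4:37251224-39150294). The number of peaks called depends on read depth, so a balance far from the median is given as counts only.

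Every autosome held desert sites. Chromosome 13 had the densest desert sequence, with 803 sites at 43.6 per Mb, and chromosome 6 the sparsest, with 459 sites at 17.3 per Mb. On all 19 autosomes the density was below that of the rest of the same chromosome, which ranged from 71.8 to 106 sites per Mb.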

How the data were processed

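Peak and hotspot lists of 2 DNase-seq replicates were used. Per the file descriptions deposited with them, each list was called by the authors from the filtered alignments of its own replicate on mm10, and nothing was pooled. The sources used here give no aligner, caller, threshold or read depth. The deposited peaks are 150 bp wide and carry the authors' score, a whole number without stated normalization. The deposited hotspots carry the −log10 of a q-value, by the authors' broad peak format, with a ceiling of 100.

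Regions off chromosomes 1 to 19 were set aside and repeated coordinates kept once. Peaks that overlapped a peak of the other replicate by 1 bp or more were kept, and overlapping ones were merged into sites. A site's score in a replicate is the highest of its peaks there, and its rank is the mean percentile within both lists. Distances run from the site midpoint to the start sites of all transcripts of protein-coding genes in GENCODE M21 (basic set). Sequence and repeat masking came from RefSeq's GRCm38.p6, which shares mm10 coordinates. Desert intervals are maximal stretches over 300 kb from every such start, measured without assembly gaps, and are named by the flanking coding genes. Lengths by class were summed over steps of 100 bp. Sequence content and 25 consensus motifs used 150 bp windows at site midpoints. The motifs overlap in part, as the NFI palindrome and single motif do.

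The site rule and the 5 gene lists were chosen with earlier results of these data known. Named were the 12 intervals with most sites, the 8 densest of at least 200 kb with 10 or more sites, the 6 longest without a site, the 4 sparsest of the 50 longest (1 of which is not reported here), the 10 highest ranked and 5 farthest sites, 3 sites on either side of 300 kb, the 12 coding bodies and 12 nearest genes with most sites, the 5 leading genes per list, 6 lncRNA starts, and 3 intervals leaning to each replicate. No test was run, since a single group of 2 samples has no contrast and sites are not replicates. Interval, distance and motif functions were tested on simulated data, with 0 disagreements in 7 checks. Tools were Python 3.11.15, numpy 2.4.6, pandas 2.3.3 and scipy 1.17.1.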

Additional observations from a re-analysis of the deposited data

How the results depend on the processing

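Of 104 alternative values, 55 stayed within the limit set for them and 49 moved further. A change of direction was defined only for the score, CTCF, density and gene list results, and none of these reversed. For the counts of sites and of empty intervals the limit was a fixed fold change. For most others it was the spread between the values without each replicate. Score differences were equal in the replicates (-8 and -8), so any shift passed the limit. Overlap shares were far apart (48.4% and 83.1%), so no shift did. The division into 55 and 49 therefore depends on these limits. The 2 alternatives with the comprehensive annotation were chosen after seeing the data. Leaving out a replicate, which takes all peaks of the other one, gave 15989 to 27313 sites in place of 13276, 15.2 to 15.4% of them in coding bodies, a density ratio of 0.353 to 0.436 in place of 0.35, score differences from distal sites of -9 in replicate 1 and -7 in replicate 2, and a CTCF difference of -1.68 to -1.16 percentage points in place of -1.92. The share of sites over the share of sequence was then 1.83 to 2.02 for mesenchymal factors, 2.23 to 2.53 for signalling genes, 1.33 to 1.37 for neural factors and 0.689 to 0.732 for adhesion genes, and 37 to 54 intervals had no site.

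With a limit of 200 kb there were 22322 sites, 20.9% in coding bodies, a score difference of -7 in replicate 2, list ratios of 1.9, 2.11, 1.25 and 0.63 in the same order (2.03, 2.58, 1.42 and 0.681 as reported) and 105 empty intervals in place of 63, which count the 13 wholly in gaps. With 500 kb there were 5398 sites, 10.8% in coding bodies, a density ratio of 0.262, a score difference of -11 in replicate 1 and list ratios of 2.22, 3.5, 1.47 and 0.808. With peaks at or above the median score of their list there were 4399 sites, 16.8% in coding bodies, a density ratio of 0.205, score differences of -3 and -5 (-8 and -8 as reported), a CTCF difference of -2.58, list ratios of 2.4, 2.33, 1.56 and 0.533 and 167 empty intervals. The other, shorter CTCF string gave a CTCF difference of -1.33. An overlap of 75 bp gave score differences of -9 and -7, as did the comprehensive annotation, with which 8.42% of sites lay in coding bodies (12.3% with protein-coding transcripts only) and the ratio for neural factors was 1.36. Outside coding bodies the ratios were 1.47 for neural factors and 0.638 for adhesion genes. The cause of these shifts was not tested.

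No paired analysis was possible because the samples form a single group. Read depth is unknown, so whether a lower score or an unshared peak reflects depth was not tested.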
